A study of Mus musculus with 117 samples.

Results

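Pancreas of NOD-scid mice was compared with pancreas of B6-scid mice at 6 weeks of age. Every pancreas sample of that age entered, with all probe sets of designs A to C of the MG-U74v2 arrays made by Affymetrix. These were 10 mice, 5 of each strain, and 30 arrays, out of 39 mice and 117 arrays in the series; the other mice gave submandibular or lacrimal gland. The strains were NOD.CB17-Prkdc scid/J, on the background that develops autoimmune diabetes and gland disease, and B6.CB17-Prkdc scid/SzJ, on the C57BL/6 background. Both were homozygous for the scid allele of Prkdc and female, so the allele is shared by the groups and does not differ between them. Each mouse was read once on each design, and the number of mice limits the precision.

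Most of the pancreas is acinar tissue, whose cells make digestive enzymes as inactive precursors, store them in zymogen granules and release them into ducts. Islets of endocrine cells lie between the acini and make insulin, glucagon and somatostatin. The scid allele prevents the rearrangement of antigen receptor genes, so these mice lack mature T and B cells, and macrophages, dendritic cells and NK cells remain. The NOD strain, unlike the B6 strain, is prone to loss of beta cells once lymphocytes are present. The comparison asks which transcripts of the organ differ between the backgrounds without lymphocytes.

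Levels are scaled signals, in arbitrary units, from arrays set to a common trimmed mean, and a difference is NOD-scid minus B6-scid on the log2(signal + 32) scale (a log2 fold change), given with its standard error (SE). A probe set was called when limma's p, adjusted by Benjamini-Hochberg over the 3 designs, was under 0.05. Summed signals of 11 acinar proteases lay at 1728165 to 2087281 in B6-scid mice and at 1792827 to 2255530 in NOD-scid mice. The other glands were not summed, so these values do not test the tissue label. Between mice of a design, signals correlated at 0.91 to 0.95 on design A and at 0.78 to 0.84 on design C. The signal ratio of the 3' to the 5' Actb probe set, a sign of RNA integrity and labelling, was 1.86 to 3.08 in B6-scid and 1.99 to 2.08 in NOD-scid pancreas. In bulk tissue, fewer cells of a type and less RNA per cell cannot be told apart.

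Of 28733 probe sets tested, 127 (0.442%) were called, 46 higher in NOD-scid (0.16%) and 81 lower (0.282%). They stood for 97 genes, 33 higher and 64 lower, out of 13908 genes tested (0.697%, with 0.237% higher and 0.46% lower). Of the called probe sets, 121 differed at least 2-fold, and in 126 of them no signal of a mouse of 1 strain reached into the range of the other strain, as in 861 of all probe sets tested (3.0%). The median log2 fold change over all probe sets was 0.02. Leaving out 1 mouse at a time gave 88 to 130 calls, and 70 of the 127 calls held in all 10 of these fits. With the Actb ratio as a covariate, 42 probe sets were called, 24 higher and 18 lower, and 32 of them were among the 127. Among these were the calls of all 3 Ctrc probe sets, of 1 probe set each of Reg3g and Ly6e, and of Itln1, Pigr, Sesn2, Vtn, Arg2, B4galnt1 and Rpgrip1. Those of H2-K1, Fah, Fbp1, Lcat, Wars and Vars were lost, and the part of RNA quality in them was not tested.

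**Figure D1:**
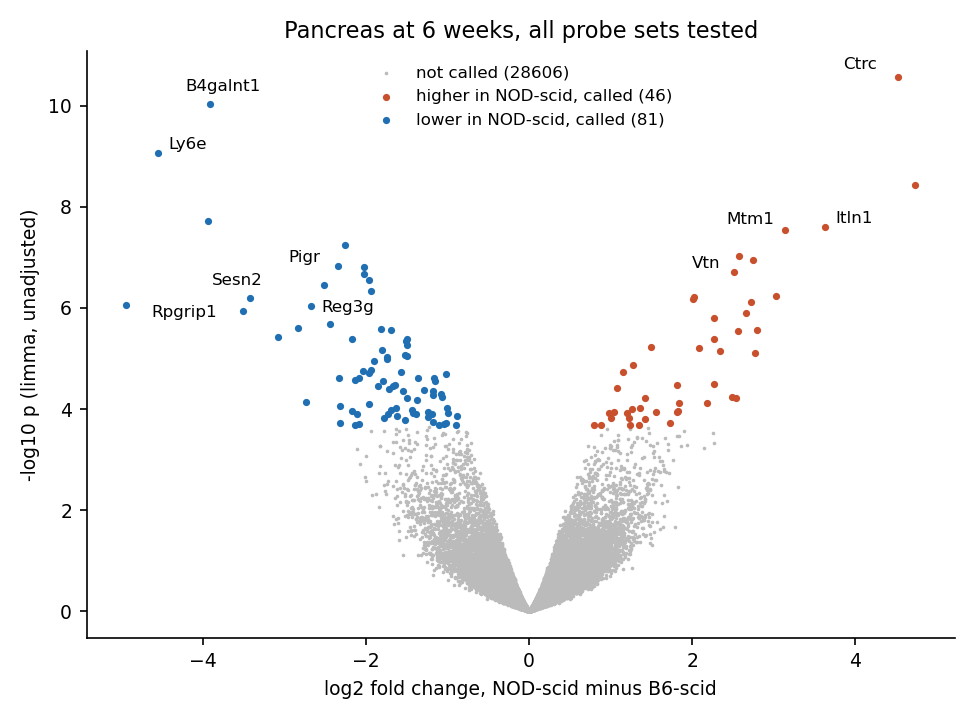
Each point is a probe set in pancreas, with the log2 fold change (NOD-scid minus B6-scid, n = 5 mice each) on the x axis and -log10 of limma's unadjusted p on the y axis. The 46 probe sets called higher are orange and the 81 called lower are blue; Ctrc stands at the far right and B4galnt1 and Ly6e at the upper left.

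Among the digestive enzymes, a single protease was called. Ctrc encodes chymotrypsin C, a pancreatic protease that cleaves trypsinogen and trypsin and so sets how much active trypsin forms. On the design B probe set its signal was 12069, 9526, 12827, 9863 and 11811 in the 5 B6-scid mice and 268762, 241339, 235424, 305676 and 235325 in the 5 NOD-scid mice. Every NOD-scid mouse was far above every B6-scid mouse. The ratio of the means was 22.9, and the log2 fold change was 4.52 (SE 0.17, adjusted p = 7.9e-07 by limma). Both other Ctrc probe sets, on design C, were called higher too, by 4.73 (SE 0.28) and 2.79 (SE 0.31).

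The enzymes that chymotrypsin C acts beside did not pass the test. Of 11 acinar protease genes tested, 1 was called higher and 10 were not called, and the median log2 fold change of the list was -0.15 against 0.02 over all genes. Prss2, a trypsinogen, was at 121064 ± 17791 in B6-scid and 101098 ± 9716 in NOD-scid pancreas (SD, n = 5 each). Ctrb1, a chymotrypsinogen, differed by -0.18 (SE 0.15), Cela1, an elastase, by -0.16 (SE 0.15), and the carboxypeptidases Cpa1 and Cpb1 by 0.06 (SE 0.25) and 0.05 (SE 0.16). After quantile normalization Cela1 was at 0.016 and Cpa1 at 0, so neither has a direction. Whether the arrays compress differences at signals as high as these was not tested.

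Of 8 genes for lipases, amylase, phospholipase and ribonuclease, 0 were called by limma and 2 had an unadjusted p under 0.05 (over all genes tested, 9.879% had one), with a median of -0.04. Those with the smallest p were Amy2a5, a pancreatic amylase, and Pla2g1b, the secreted phospholipase of pancreatic juice. The Amy2a5 signal was 3226, 3504, 5318, 5179 and 4154 in B6-scid and 18247, 8372, 14905, 4226 and 14642 in NOD-scid mice, so NOD-scid mouse 4 lay within the B6-scid range and the others above it. The difference of 1.35 (SE 0.38) had an adjusted p of 0.22. The 4 Pla2g1b probe sets disagreed: they gave 0.76 (SE 0.23, adjusted p = 0.25) and 0.45 (SE 0.20) on design C, 0.35 (SE 0.15) on design B and 0.02 (SE 0.16) on design A. The first of these was at -0.024 after quantile normalization, so the gene has no settled direction.

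**Figure D2:**
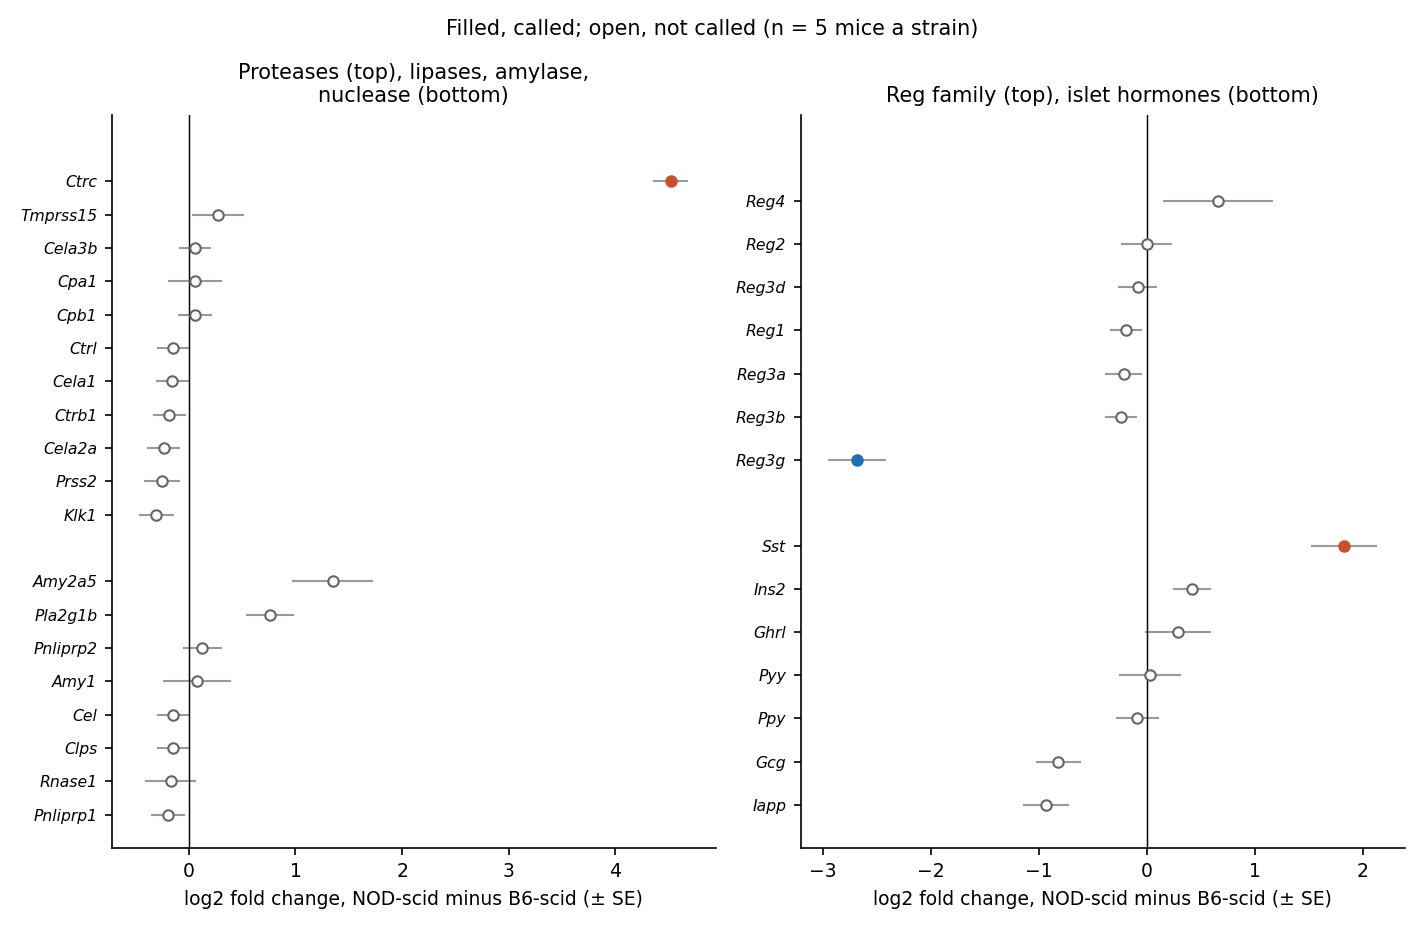
Log2 fold change (x axis, NOD-scid minus B6-scid, bars are SE, n = 5 mice each) of each tested gene of the acinar proteases and the lipases, amylase and nuclease on the left, and of the Reg family and islet hormones on the right. Filled points were called and open points were not; Ctrc at 4.52, Reg3g at -2.68 and Sst at 1.82 stand apart from the genes around them.

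Among 15 genes for proteins of the zymogen granule and its release, Itln1 was called higher and 14 were not called (median -0.05). Itln1 encodes intelectin, a secreted lectin that binds sugars of microbial surfaces. Its signal was 425, 248, 182, 269 and 234 in B6-scid mice and 5061, 3048, 2665, 3217 and 4497 in NOD-scid mice. The lowest NOD-scid mouse was above the highest B6-scid mouse, and the difference was 3.62 (SE 0.25, adjusted p = 0.00012 by limma). The granule proteins Gp2, Zg16 and Sycn differed by 0.10 (SE 0.24), -0.21 (SE 0.15) and -0.12 (SE 0.16). Of 15 genes for acinar transcription factors and secretagogue receptors, 0 were called by limma and 0 had an unadjusted p under 0.05 (9.879% over all genes). Ptf1a, which holds acinar cells in their fate, was at 3395 in B6-scid and 2689 in NOD-scid mice (-0.30, SE 0.25).

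In the Reg family of small secreted lectins, Reg3g was called lower and the 6 other members tested were not called (median -0.19). Reg3g encodes a lectin that kills Gram-positive bacteria and is best known from the gut. Its signal was 39102, 51161, 45276, 39329 and 38132 in B6-scid mice and 5018, 4159, 11315, 6174 and 8437 in NOD-scid mice. All NOD-scid mice lay below all B6-scid mice, by -2.68 (SE 0.27, adjusted p = 0.0011 by limma), and the other Reg3g probe set gave -2.83 (SE 0.31), a call lost with the Actb ratio as a covariate (adjusted p = 0.057).

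Reg3b, its neighbour in sequence and function, was at 134788, 130377, 136097, 155412 and 137556 in B6-scid and 128513, 106344, 116703, 115171 and 122026 in NOD-scid mice. These ranges did not overlap either, yet the difference was small, -0.24 (SE 0.14, adjusted p = 0.66). Reg3b was brighter than Reg3g, and whether its difference is compressed at such signals was not tested. Reg3a, Reg3d, Reg1 and Reg2 differed by -0.22 (SE 0.17), -0.08 (SE 0.18), -0.19 (SE 0.15) and 0.00 (SE 0.24), the design A probe set of Reg2 with the smallest p gave -0.29 (SE 0.16), and after quantile normalization Reg1 was at 0.031. Because Reg3g and Reg3b differed so unlike each other between the strains, the 250 bases before the start of each are shown, from RefSeq, build GRCm38.p6, which is the C57BL/6J sequence. Reg3g lies on the minus strand of chr6:78468875-78469124 and Reg3b on the plus strand of chr6:78370635-78370884. Both read in the gene's direction, and the capitals mark their longest shared run, 20 bases that end at the start.
Reg3g: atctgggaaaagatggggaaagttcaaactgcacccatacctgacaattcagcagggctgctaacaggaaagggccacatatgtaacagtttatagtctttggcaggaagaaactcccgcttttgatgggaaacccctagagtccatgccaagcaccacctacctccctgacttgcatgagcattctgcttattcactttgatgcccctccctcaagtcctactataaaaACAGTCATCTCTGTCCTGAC
Reg3b: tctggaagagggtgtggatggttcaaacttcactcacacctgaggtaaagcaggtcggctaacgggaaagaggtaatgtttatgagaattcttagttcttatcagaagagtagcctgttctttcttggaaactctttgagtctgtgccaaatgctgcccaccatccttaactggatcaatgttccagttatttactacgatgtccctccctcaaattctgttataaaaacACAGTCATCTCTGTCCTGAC
A global alignment of these windows held 173 identical bases in 253 columns (68.4%). No NOD sequence was read here, so these letters say nothing about the bases that differ between the strains.

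**Figure D3:**
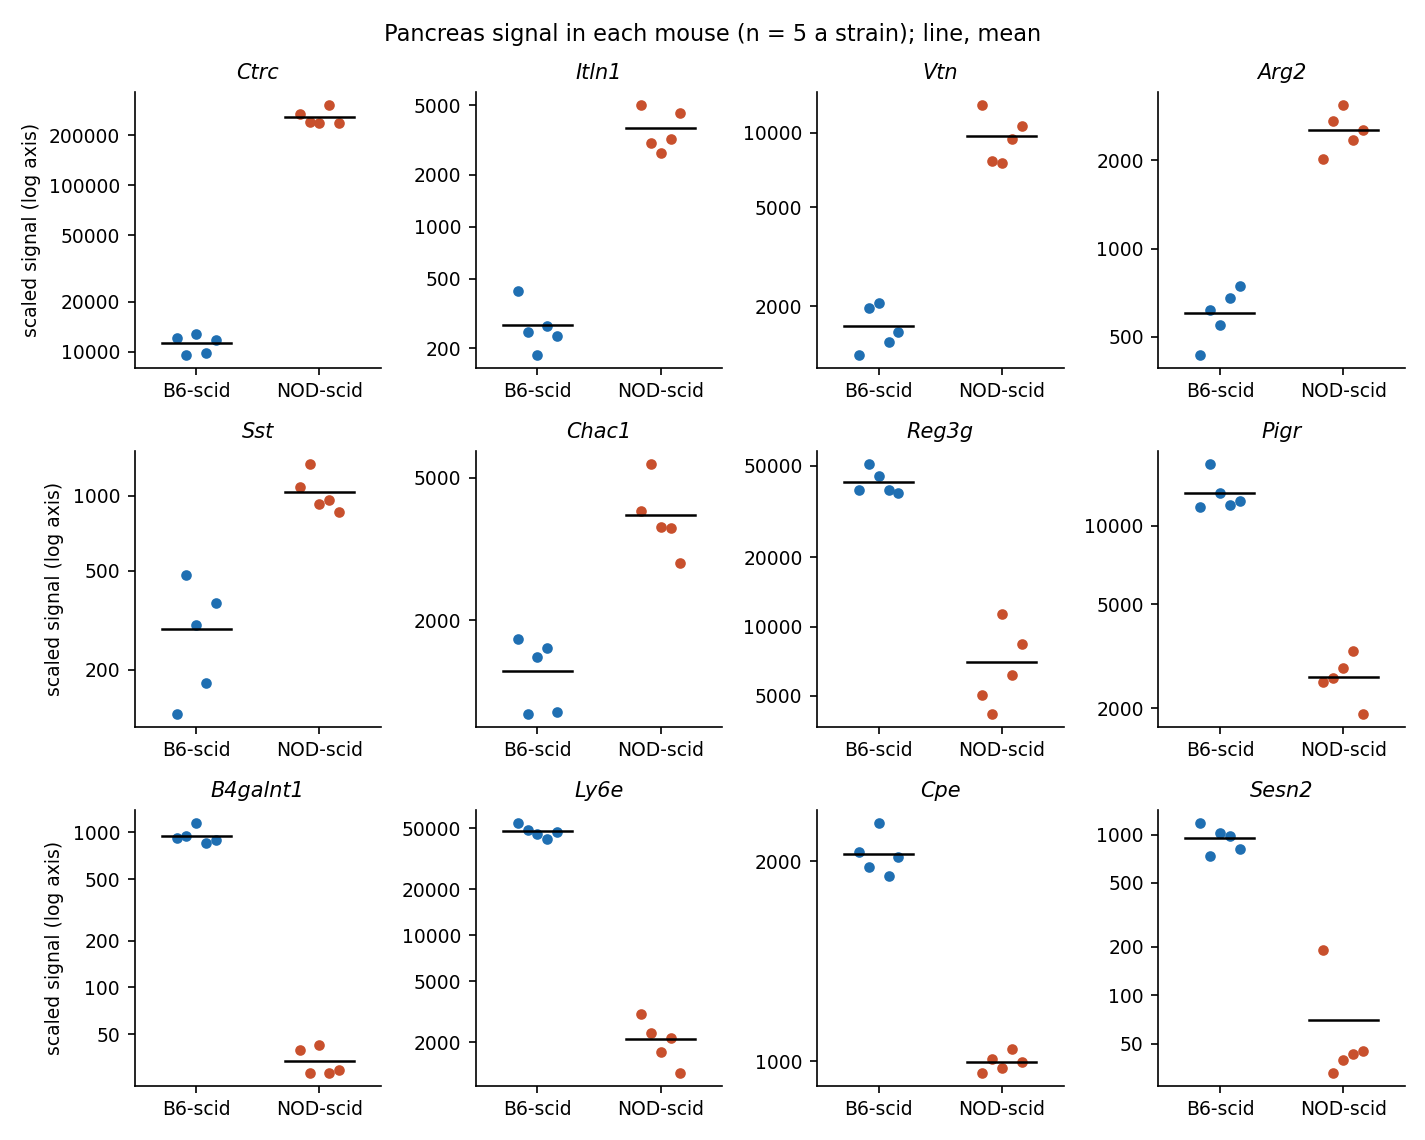
Scaled signal (y axis, log scale) of 12 genes in each of the 5 B6-scid (blue) and 5 NOD-scid (orange) pancreas mice; black lines are means. The strains do not overlap in any panel, and NOD-scid mouse 1 of Sesn2, at 191, is the only NOD-scid mouse above 45 there.

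Of 15 duct epithelium genes tested, Pigr was called lower and 14 were not called (median 0.00). Pigr encodes the receptor that carries polymeric immunoglobulin A across epithelia into secretions. It was at 11839, 17313, 13322, 12008 and 12407 in B6-scid mice and at 2512, 2616, 2847, 3302 and 1898 in NOD-scid mice, with no overlap (-2.34, SE 0.20, adjusted p = 0.00036 by limma). Muc1, a membrane mucin, differed by -0.64 (SE 0.18, adjusted p = 0.23), and the simple epithelial keratins Krt8 and Krt18 by -0.54 (SE 0.20) and -0.59 (SE 0.22). Krt19 was at 259 and 208, and the chloride channel Cftr at 334 and 417. The summed signal of the 17 duct genes on the arrays was 38635 to 45513 in B6-scid and 22043 to 26838 in NOD-scid mice. Pigr (mean 13378 against 2635), Muc1 (11227 against 7317) and Krt18 (7499 against 4968) carry most of that gap, and 8 of the 15 genes tested lay above 0.

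Among 7 islet hormone genes tested, Sst was called higher and 6 were not called (median 0.03). Sst encodes somatostatin, the hormone of delta cells that restrains insulin and glucagon release. Its signal was 132, 481, 303, 176 and 369 in B6-scid mice and 1086, 1347, 927, 965 and 861 in NOD-scid mice. The groups did not overlap, and the difference was 1.82 (SE 0.31, adjusted p = 0.034 by limma). This call was lost in 8 of the 10 fits without 1 mouse, all but those without B6-scid mouse 1 or 2, with an adjusted p of up to 0.090 without NOD-scid mouse 2, and it was lost with the Actb ratio as a covariate (adjusted p = 0.10).

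The beta and alpha cell hormones had no call. Iapp, the amyloid peptide that beta cells release with insulin, was at 2218, 2364, 2507, 2266 and 1978 in B6-scid and 1054, 940, 864, 1583 and 1593 in NOD-scid mice. The strains did not overlap, and the difference of -0.93 (SE 0.21) had an adjusted p of 0.11. Ins2, an insulin gene, lay at 43356 ± 6939 against 57703 ± 7752 (0.42, SE 0.18), and Gcg, glucagon, at 44594 ± 11056 against 25051 ± 4639 (-0.82, SE 0.21, adjusted p = 0.17). Ppy, pancreatic polypeptide, was at 677 against 631.

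Of 22 other islet endocrine genes, Cpe was called lower and 21 were not called, with 11 on each side of 0 (median -0.04). Cpe encodes carboxypeptidase E, which trims prohormones in secretory granules. Its probe set with the smaller p was at 2064, 1960, 2286, 1898 and 2028 in B6-scid and at 960, 1009, 977, 1043 and 997 in NOD-scid mice. The spread within a strain was small against the gap of -1.01 (SE 0.14, adjusted p = 0.010), and another probe set gave -1.37 (SE 0.22, adjusted p = 0.024), a call lost in 7 of 10 fits without 1 mouse. The 2 other Cpe probe sets, both on design C and not called, gave -0.61 (SE 0.31) and, in the opposite direction, 1.38 (SE 0.47). The call of the first ended with the Actb ratio as a covariate (adjusted p = 0.12). Gal, the neuropeptide galanin, was also lower, at 4436 ± 243 against 2402 ± 302 (-0.88, SE 0.15, adjusted p = 0.037), a call that was lost in 9 of 10 fits without 1 mouse, all but that without NOD-scid mouse 4.

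Cells short of amino acids, or with stressed endoplasmic reticulum, activate the factor ATF4, which raises genes that import amino acids and make cysteine, serine and one-carbon units. Of 23 such genes tested, 4 were called higher (Chac1, Cth, Slc7a5 and Mthfd2), 1 was called lower (Sesn2) and 18 were not called. Over all genes tested, 0.237% were called higher and 0.46% lower. The median log2 fold change was 0.23 against 0.02 over all genes, and 18 of the 23 lay above 0, as did 7272 of all 13908 genes. Chac1, an enzyme that breaks down glutathione, was at 1772, 1092, 1574, 1669 and 1109 in B6-scid mice and 4045, 5484, 3643, 3625 and 2894 in NOD-scid mice. No mouse crossed between the groups, and the difference was 1.43 (SE 0.22, adjusted p = 0.022 by limma).

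Cth, which makes cysteine from cystathionine, was at 252, 242, 197, 278 and 365 in B6-scid and 645, 983, 826, 481 and 793 in NOD-scid mice (1.37, SE 0.23, adjusted p = 0.031). Slc7a5, a transporter of large neutral amino acids, was at 2488, 1806, 2433, 2241 and 2500 against 4162, 5164, 5693, 3895 and 4914 (1.04, SE 0.18, adjusted p = 0.034). Mthfd2, a mitochondrial enzyme of folate metabolism, was at 2964, 2339, 3337, 3244 and 2452 against 7468, 9793, 6491, 4423 and 6714 (1.24, SE 0.23, adjusted p = 0.048). In each of these the lowest NOD-scid mouse was above the highest B6-scid mouse. Slc3a2, the partner chain of Slc7a5, differed by 0.93 (SE 0.19, adjusted p = 0.082), and Atf5 by 1.17 (SE 0.28, adjusted p = 0.13), both without overlap.

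Members not called ranged more widely. Aldh18a1 was at 0.51 (SE 0.27), Gpt2 at 0.54 (SE 0.42), Asns, which makes asparagine, at 0.39 (SE 0.21) and Eif4ebp1 at 0.40 (SE 0.19), while 4 probe sets of Psat1, of the serine pathway, ran from -1.10 (SE 0.48) to 1.11 (SE 0.53). Atf4 itself was at 0.17 (SE 0.16), Atf3 at 0.05 (SE 0.30) and the cystine transporter Slc7a11 at 0.05 (SE 0.35). The 4 increases were close to the threshold. Leaving out 1 mouse at a time ended the call of Chac1 in 4 of 10 fits (B6-scid mice 2, 3 and 5 and NOD-scid mouse 3), of Cth and Slc7a5 in 8 each and of Mthfd2 in 9, with an adjusted p of up to 0.12. With the Actb ratio as a covariate all 4 calls were lost; Chac1, Cth and Slc7a5 were then at 1.35, 1.38 and 1.08, with limma's adjusted p of 0.19, 0.19 and 0.18.

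Because Chac1 was the gene of this list with the largest increase, the 250 bases before its start are shown (RefSeq, GRCm38.p6, chr2:119350992-119351241, plus strand). The motif TGATGNAA, a form of the amino acid response element bound by ATF4 with partners, was searched on both strands, and the capitals mark its only match, on the minus strand.
Chac1: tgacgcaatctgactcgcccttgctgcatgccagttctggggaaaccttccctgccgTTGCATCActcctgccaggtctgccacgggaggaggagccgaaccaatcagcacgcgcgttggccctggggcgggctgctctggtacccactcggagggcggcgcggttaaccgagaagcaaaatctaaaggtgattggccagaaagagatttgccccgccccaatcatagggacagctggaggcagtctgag
The match starts 193 bases before the gene's start. Of 32851 promoter windows of this length, 1134 (3.45%) hold the motif. Counted by gene, as for the lists below, 1056 of 27025 (3.91%) hold it in any window. Of 22 genes of the list found in the promoter table, 7 hold it: Asns, Atf3, Chac1, Fgf21, Nupr1, Pycr1 and Slc7a11. Of 26 genes called higher and found there, 1 holds it, Chac1, and of 46 called lower, 3 do.

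Sesn2, a sestrin that is also a known target of ATF4 and restrains growth signalling, went the other way. Its signal was 1188, 736, 1021, 983 and 817 in B6-scid mice and 191, 32.7, 39.5, 43.2 and 45.0 in NOD-scid mice. NOD-scid mouse 1 was above the others of its strain and still below every B6-scid mouse (-3.42, SE 0.33, adjusted p = 0.00090). The other NOD-scid signals were under 100, the filter level for low signals, so the size of this difference rests on a dim group. Of 33 genes for chaperones of the endoplasmic reticulum and the unfolded protein response, 0 were called by limma. Of these, 8 had an unadjusted p under 0.05 (9.879% over all genes), and 24 lay below 0 (median -0.12), as did 6636 of all 13908 genes. The smallest p were those of the secreted stress proteins Creld2 (-0.76, SE 0.16, adjusted p = 0.084) and Manf (-0.79, SE 0.17, adjusted p = 0.089), and Hspa5, the main chaperone, was at 7946 against 4945 (-0.71, SE 0.20). The aminoacyl-tRNA synthetases Wars (-1.18, SE 0.18, adjusted p = 0.021) and Vars (-1.79, SE 0.26, adjusted p = 0.013) were called lower; the Wars call was lost in 4 of 10 fits (B6-scid mice 2 and 3, NOD-scid mice 2 and 5), its 4 other probe sets ran from -2.08 to 0.16 without a call, and both were named after their values were seen.

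**Figure D4:**
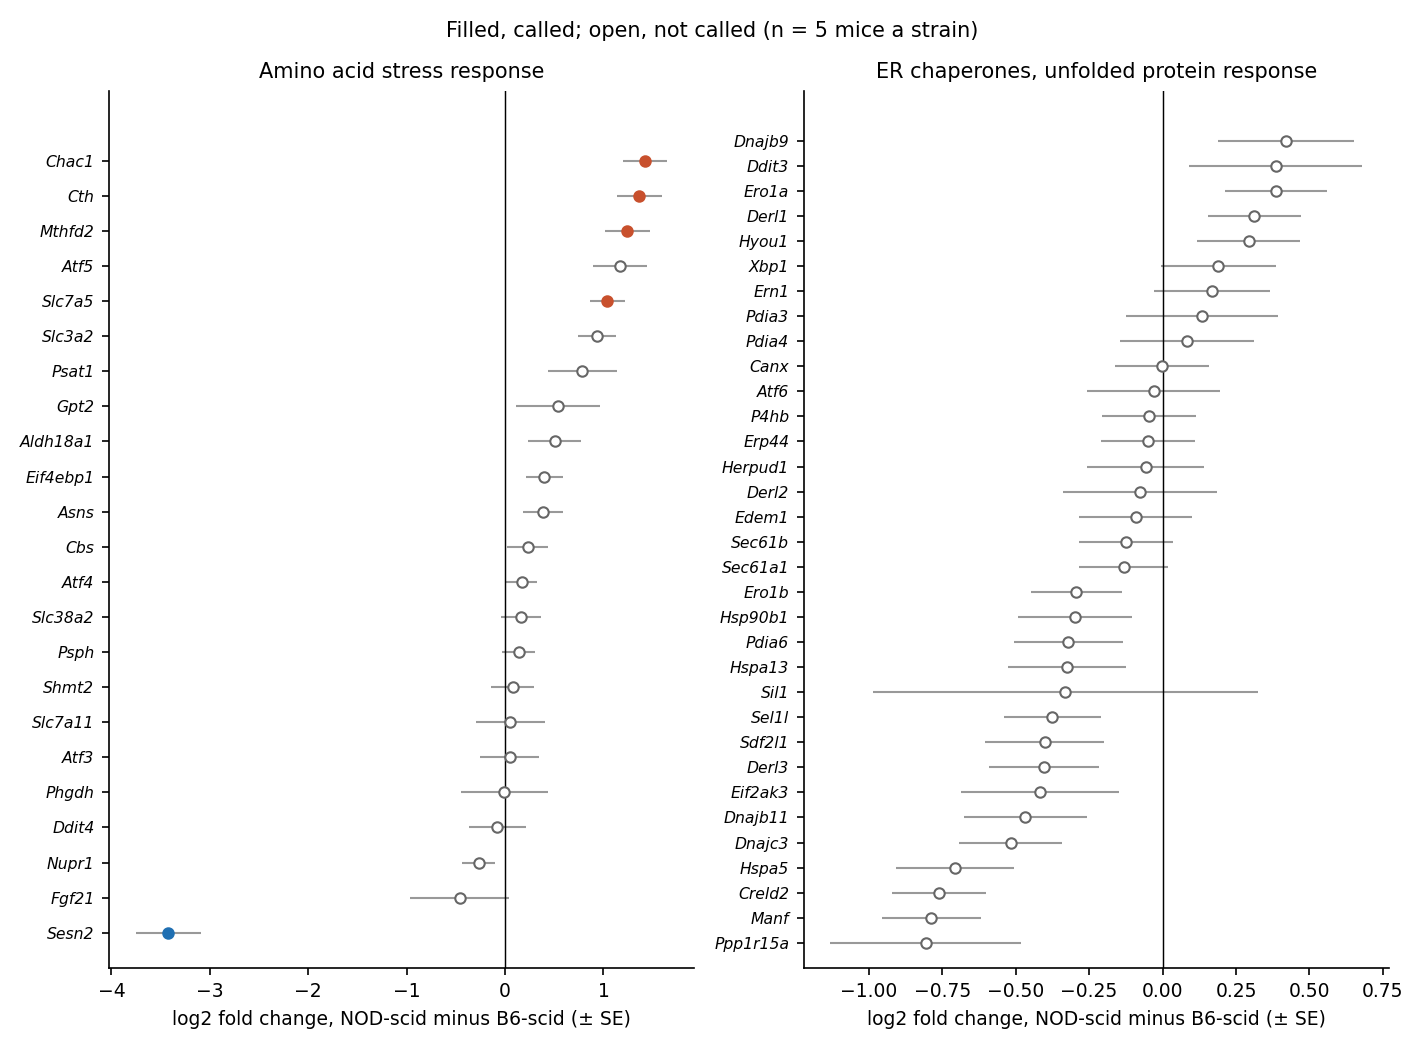
Log2 fold change (x axis, NOD-scid minus B6-scid, bars are SE, n = 5 mice each) of the 23 tested genes of the amino acid stress response on the left and the 33 of the endoplasmic reticulum chaperones and unfolded protein response on the right. Filled points were called; on the left 4 are above 0 and Sesn2 is at -3.42, and on the right none is filled and 24 lie below 0.

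The largest other increases were found in genes of unlike function. Vtn, the adhesion protein vitronectin of plasma and matrix, was at 1271, 1965, 2070, 1436 and 1571 in B6-scid and 12980, 7709, 7566, 9451 and 10677 in NOD-scid mice. All NOD-scid mice were above all B6-scid mice (2.51, SE 0.22, adjusted p = 0.00044 by limma), and Vtn was the only gene called among 33 of extracellular matrix and stellate cells (median 0.14). Arg2, the mitochondrial arginase, was at 433, 619, 549, 679 and 746 against 2023, 2728, 3104, 2343 and 2546 (2.03, SE 0.20, adjusted p = 0.00090), and another Arg2 probe set gave 0.02. Fbp1, a phosphatase of gluconeogenesis, was at 22.1 to 40.2 in B6-scid and 147 to 363 in NOD-scid mice (2.08, SE 0.26). All its B6-scid signals were under 100, the filter level for low signals, so the size of this difference rests on a dim group.

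Fah and Gstz1, enzymes of tyrosine breakdown, were at 1205 ± 124 against 2717 ± 295 (1.15, SE 0.16, adjusted p = 0.0099) and at 931 ± 41.3 against 1640 ± 144 (0.79, SE 0.14, adjusted p = 0.048). The Gstz1 call was lost in all 10 fits without 1 mouse, and that of Fah held in all of them. Lcat, which esterifies cholesterol in lipoproteins, was at 766 ± 86.1 against 2247 ± 442 (ratio of means 2.93, adjusted p = 0.0044). Procr, the receptor of protein C on endothelium, rose by 2.53 (SE 0.40, adjusted p = 0.022) with NOD-scid mice between 798 and 3230, and its call was lost in 5 of 10 fits (B6-scid mice 2, 3 and 4, NOD-scid mice 2 and 5).

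Further genes among the largest increases were Smc5 (2.74, SE 0.22), a subunit of a chromosome maintenance complex, Greb1 (2.72, SE 0.27), an oestrogen-responsive gene, and Timmdc1 (2.66, SE 0.28), an assembly factor of respiratory complex I. Fam181b (2.58, SE 0.21), Reep6 (2.34, SE 0.29), a membrane-shaping protein of the endoplasmic reticulum, Tmem45a (2.27, SE 0.33), Acpp (2.27, SE 0.24), an acid phosphatase, and Ndrg2 (2.19, SE 0.35) followed. Timmdc1 was at 13.3 to 31.6 in B6-scid and 155 to 542 in NOD-scid mice. The B6-scid means of Timmdc1 (18.1), Reep6 (88.1) and Tmem45a (44.1) were under 100, the filter level for low signals. The sizes of these differences rest on dim groups. The call of Ndrg2 was lost in 4 of 10 fits (without B6-scid mice 2 or 3 or NOD-scid mice 1 or 5), with an adjusted p of up to 0.072.

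Cry1, a cryptochrome that represses the circadian activators, was called higher, the only call among 17 clock genes (median -0.16). Its signal was 182, 269, 214, 224 and 89.0 in B6-scid and 777, 1379, 1186, 942 and 924 in NOD-scid mice, with no overlap (2.27, SE 0.27, adjusted p = 0.0032), and the call was lost with the Actb ratio as a covariate (adjusted p = 0.064). Arntl, an activator of the clock, was at 208 to 351 against 473 to 735 (0.99, SE 0.20, adjusted p = 0.079), and Nr1d2, a repressor in the opposite phase, at -0.99 (SE 0.23, adjusted p = 0.13). The hours at which the mice were killed are not given in the sources used here.

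Among the genes called lower, B4galnt1 and Ly6e had the smallest p. B4galnt1 encodes the transferase that makes the complex gangliosides from their simple precursors. It was at 926, 951, 1158, 851 and 887 in B6-scid mice and at 39.6, 28, 42.7, 28 and 29.1 in NOD-scid mice. All NOD-scid signals were under 100, the level used as the filter on low signals, so the difference of -3.91 (SE 0.16, adjusted p = 1.3e-06 by limma) rests on a dim group. It was the only call among 36 genes of ganglioside and glycan synthesis (median -0.11).

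Ly6e, a protein anchored in the outer membrane, was at 54628, 48593, 45953, 42484 and 47342 in B6-scid and 3046, 2285, 1721, 2119 and 1254 in NOD-scid mice. The gap was -4.55 (SE 0.23, adjusted p = 8.4e-06), while a design B probe set of the gene also was called (adjusted p = 0.0032, ratio of means 2.88) on signals of 3371 to 4893 against 1116 to 1498. The call of the design B probe set was lost with the Actb ratio as a covariate, and another, dim probe set was at -0.15 (SE 0.30). None of the 7 other Ly6 family genes tested was called by limma, and none of them had an unadjusted p under 0.05 (9.879% over all genes). Rpgrip1, known from photoreceptors, was at 763 to 1163 in B6-scid and 21.7 to 190 in NOD-scid mice (-3.51, SE 0.36). Its NOD-scid mean, 62.3, was under 100, so the size of this difference also rests on a dim group.

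Hsd17b13, a protein of lipid droplets, was at 7191, 7817, 7091, 5584 and 7617 against 1169, 1412, 1497, 1734 and 1441 (-2.26, SE 0.17, adjusted p = 0.00020). The lysosomal proteases Ctsl and Ctsc were at 7138 ± 1093 against 1725 ± 213 (-2.02, SE 0.18) and at 372 ± 82.4 against 71.3 ± 41.4 (-2.03, SE 0.28), and the lysosomal mannosidase Man2b1 at 859 ± 86.8 against 216 ± 106 (-1.94, SE 0.26). No mouse overlapped between the strains in any of these. The NOD-scid mean of Ctsc was under 100, so the size of its difference rests on a dim group. Tmed6, a cargo receptor of the secretory pathway, was at 10584 ± 2473 against 3003 ± 726 (-1.80, SE 0.22), and Qsox1, which forms disulfide bonds in secreted proteins, at 2605 ± 589 against 756 ± 192 (-1.75, SE 0.23).

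Other large decreases were Nipal2 (-3.07, SE 0.36), Gramd3 (-2.74, SE 0.44), Prxl2c (-2.52, SE 0.23), Tmem14c (-2.32, SE 0.42), Hs3st3b1 (-2.31, SE 0.38), which sulfates heparan, Ociad2 (-2.17, SE 0.25), the pseudogene Pisd-ps3 (-2.17, SE 0.37) and Nfs1 (-2.14, SE 0.31), a cysteine desulfurase for iron-sulfur clusters. The calls of Tmem14c, Hs3st3b1 and Pisd-ps3 were lost in 8 of 10 fits without 1 mouse each and that of Gramd3 in 5. The 3 other Gramd3 probe sets, not called, gave -1.02 (SE 0.31), -0.74 (SE 0.16) and 0.12 (SE 0.28). Among called genes, Prxl2c and Ctsl are neighbours in the genome, as are Cbx6 (-0.89) and Apobec3 (-1.49), an antiviral cytidine deaminase; each pair moved the same way. The Cbx6 call was lost in 9 of 10 fits without 1 mouse, all but that without B6-scid mouse 4, and the Apobec3 call in 5 (B6-scid mice 2 to 5 and NOD-scid mouse 1).

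Genes that present antigens were lower or not called. Of 15 genes of class I presentation, H2-K1 and H2-D1, the classical class I chains, were called lower and 13 were not called (median -0.06). Of the 15, 6 lay above 0 and 9 below, and 5 had an unadjusted p under 0.05 (over all genes tested, 9.879% had one). The highest value was that of Tap1, 0.78 (SE 0.29, not called), while another Tap1 probe set gave -1.06 (SE 0.33). H2-K1 was at 5565, 5878, 5001, 4519 and 5211 in B6-scid and 2796, 1938, 2527, 2000 and 1523 in NOD-scid mice, with no overlap (-1.29, SE 0.20, adjusted p = 0.017 by limma). Its 2 other probe sets, not called, were at -0.74 (SE 0.23) and 0.25 (SE 0.51). For H2-D1 1 probe set gave -1.24 (SE 0.22, adjusted p = 0.037) and the 2 others, which were not called, -0.93 and -0.16, and the call of the former was lost in 9 of 10 fits without 1 mouse, all but that without NOD-scid mouse 1. B2m, the shared light chain, differed by -0.23 (SE 0.20). Class I genes are among the most variable between inbred strains. Whether the probes match both alleles was not tested, for these or for any other called gene.

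Of 12 class II genes, 0 were called by limma, 3 had an unadjusted p under 0.05 and 11 lay below 0 (median -0.30), with H2-Aa at -1.20 (SE 0.34, adjusted p = 0.23). Of 29 interferon response genes, 0 were called, 6 had an unadjusted p under 0.05 and 20 lay below 0 (median -0.18). Against these counts, 9.879% of all genes had an unadjusted p under 0.05, and 6636 of all 13908 genes lay below 0. Summed signals did not overlap between the strains in 8 of 40 lists, among them class I, endothelium, islet endocrine genes and both lists here. How often sums of other gene lists do so was not tested. For class II the sum was 5049 to 6179 in B6-scid and 4093 to 4560 in NOD-scid mice, and for interferon 19618 to 21829 against 16772 to 18002. For endothelium it was 9211 to 10798 against 10849 to 11483. The class I sum was 17640 to 20029 against 14603 to 17507, with H2-K1 alone at a mean of 5235 against 2157. The islet endocrine sum was 15929 to 18188 against 12308 to 13333, with Cpe alone at 2794 against 1075. Of the 22 islet endocrine genes tested, 11 lay on each side of 0. Over 7 lists of immune cell markers, for mast cells, neutrophils, macrophages, dendritic cells, NK cells and both lymphocyte classes, 0 of 71 gene entries were called by limma and 3 had an unadjusted p under 0.05, with list medians from -0.08 to 0.31. The T cell sum was 3550 to 5492 in B6-scid and 4158 to 5757 in NOD-scid mice.

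Of 4 red cell genes tested, 0 were called by limma and 2 had an unadjusted p under 0.05 (median 0.78), as had 9.879% of all genes tested. The summed signal of 5 red cell genes was 3919 to 6266 in B6-scid and 7046 to 14008 in NOD-scid mice, with no overlap, and Hba-a1 makes up most of it. This alpha globin was at 2622 to 4677 against 5412 to 12632 (1.25, SE 0.26, adjusted p = 0.080), and Hbb-b2, a beta globin outside that list, was called higher at 511, 455, 729, 743 and 604 against 1711, 2824, 1458, 4197 and 1786 (1.83, SE 0.30, adjusted p = 0.026). The Hbb-b2 call was lost in 5 of 10 fits without 1 mouse, with an adjusted p of up to 0.074. The part of blood left in the organ in any other difference was not tested.

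Some genes known to be disrupted in either strain or both were followed as well. The called genes were not checked for such changes. The Prkdc probe set was under the filter, at 29.0 to 68.0 in B6-scid and 37.3 to 133 in NOD-scid mice. Nnt, a mitochondrial transhydrogenase whose gene carries a deletion in C57BL/6J mice, was at 355 to 562 against 453 to 927 (0.50, SE 0.24, adjusted p = 0.56), and Hc, complement factor 5, which NOD mice lack as protein, at 55.7 to 220 against 115 to 424 (0.91, SE 0.42, adjusted p = 0.54). Of 13 candidate genes of diabetes susceptibility intervals, 0 were called by limma and 1 had an unadjusted p under 0.05 (9.879% over all genes).

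Several genes were read by more than 1 probe set. Of the 97 called genes, 52 had other tested probe sets, 90 in all; 57 of these lay on the same side of 0, and 6, in 5 genes (Ctrc, Ly6e, Reg3g, Cpe and Prxl2c), were called, each on the same side. In 12 genes all other probe sets lay on the opposite side. For Mtm1, a phosphoinositide phosphatase, 1 probe set rose by 3.14 (SE 0.22) while the 3 others lay between -0.23 and 0.23. For Wdr92, the called probe set was at 6399 to 10352 in B6-scid and 33298 to 99015 in NOD-scid mice (3.03, SE 0.29), and the other at -0.09. The others of Gal (0.24), Lcat (-0.25), Qsox1 (0.08) and Hs3st3b1 (0.23) also lay opposite to the call. Those of Nipal2 (-0.10), Acpp (0.21), Ociad2 (-0.19), Cth (0.42), Man2b1 (-0.18 to 0.10), Nfs1 (-0.06 to 0.18) and Rpgrip1 (-1.25 to 0.08) were not called. Nor were those of Ctsc (-1.77 to 0.49) and Gramd3 (-1.02 to 0.12). For such genes the called value stands for that probe set alone, and what sets the probe sets apart was not tested.

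The same strains were read in submandibular gland at 9 and 15 weeks and in lacrimal gland at 15 weeks, so the strain difference in pancreas could be set against each. Gland and age cannot be told apart here, because pancreas was taken at 6 weeks only. In a limma fit of all 39 mice, the strain difference in pancreas differed from that in submandibular gland in 123 of 34418 probe sets at 9 weeks (0.357%) and 74 at 15 weeks (0.215%), and from that in lacrimal gland in 220 (0.639%). Strain differences were called in 1.31%, 0.689% and 1.89% of probe sets in those 3 comparisons, and 39, 34 and 45 of the 127 pancreas calls were called there in the same direction. Across all 3, 27 of the 127 pancreas calls were called the same way in all 3 other comparisons, 5 higher and 22 lower. Among them were Rpgrip1 (-3.51 in pancreas, -3.94, -3.37 and -3.18 in the order given), Ctsc (-2.03, -1.85, -1.76 and -2.49), Apobec3 (-1.49, -2.36, -2.12 and -2.26) and both Ly6e probe sets. Whether the probes of these genes match both alleles was not tested.

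Ly6e and Fbp1 differed in size between glands. The Ly6e signal in NOD-scid mice was 2490 ± 424 and 4792 ± 795 in submandibular gland (n = 5 each) and 320 ± 183 in lacrimal gland (n = 4), against 24169 ± 4850, 22370 ± 798 and 43603 ± 13504 in B6-scid mice (n = 5 each). Its strain difference in pancreas was 2.55 (SE 0.38) smaller than in lacrimal gland (adjusted p = 0.00014) and larger than in submandibular gland at 15 weeks, by -2.32 (SE 0.37, adjusted p = 0.00054). Fbp1 was higher in NOD-scid mice in each gland, by 4.52, 4.20 and 3.47, and the pancreas difference of 2.08 lay below each of these, by -2.44 (SE 0.33), -2.12 (SE 0.33) and -1.39 (SE 0.34, adjusted p = 0.042).

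For 14 probe sets the pancreas difference was called, differed from all 3 others by the test, and was called in none of them. They were B4galnt1, both of Reg3g, Hsd17b13, Man2b1 and 1 without a name among those lower, and Arg2, Ndrg2, Acpp, Reep6, Fam181b, Mtm1, Itln1 and 1 of Ctrc among those higher. B4galnt1 was at 667 ± 164 to 890 ± 119 in the other NOD-scid glands and 869 ± 308 to 1249 ± 391 in the B6-scid ones, so its signal under 100 was seen in NOD-scid pancreas alone of the 8 groups. Its strain difference in submandibular gland at 15 weeks, -0.84, had the same direction and came close to a call (adjusted p = 0.054 by limma). Reg3g lay at 43.0 or below on average in every gland outside the pancreas, and Hsd17b13 at 49.6 or below, so there a strain difference had little signal to show in. Arg2 was at 291 ± 40.4 and 409 ± 78.3 in NOD-scid and B6-scid lacrimal gland, in the opposite order to pancreas but not called, and its pancreas difference was larger by 1.97 (SE 0.32), 2.78 (SE 0.32) and 2.46 (SE 0.33).

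Itln1 was at 269 to 344 on average in the other B6-scid glands and 305 to 423 in the other NOD-scid glands, so NOD-scid pancreas stood above the 7 other groups. The Ctrc probe sets disagreed on the gland. The design C probe set at 4.73 in pancreas differed from all 3 other comparisons by the test. The design C probe set at 2.79 differed from 0 of them, and the design B probe set from 2. The first of these was at 56.8 to 75.3 on average in the other B6-scid glands. These averages were under 100, the filter level for low signals, so the sizes of its gland differences rest on dim groups. In NOD-scid submandibular gland at 9 weeks this probe set reached 1157 in 1 mouse. The design B probe set reached 9699, and was called there (2.46, adjusted p = 0.011). Plxnd1, a semaphorin receptor, was lower in NOD-scid pancreas (-1.75, SE 0.22) and higher in NOD-scid lacrimal gland (2.10, adjusted p = 0.0015), the only pancreas call with a call in the opposite direction elsewhere; the gap between them was -3.84 (SE 0.55, adjusted p = 6.4e-05).

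**Figure D5:**
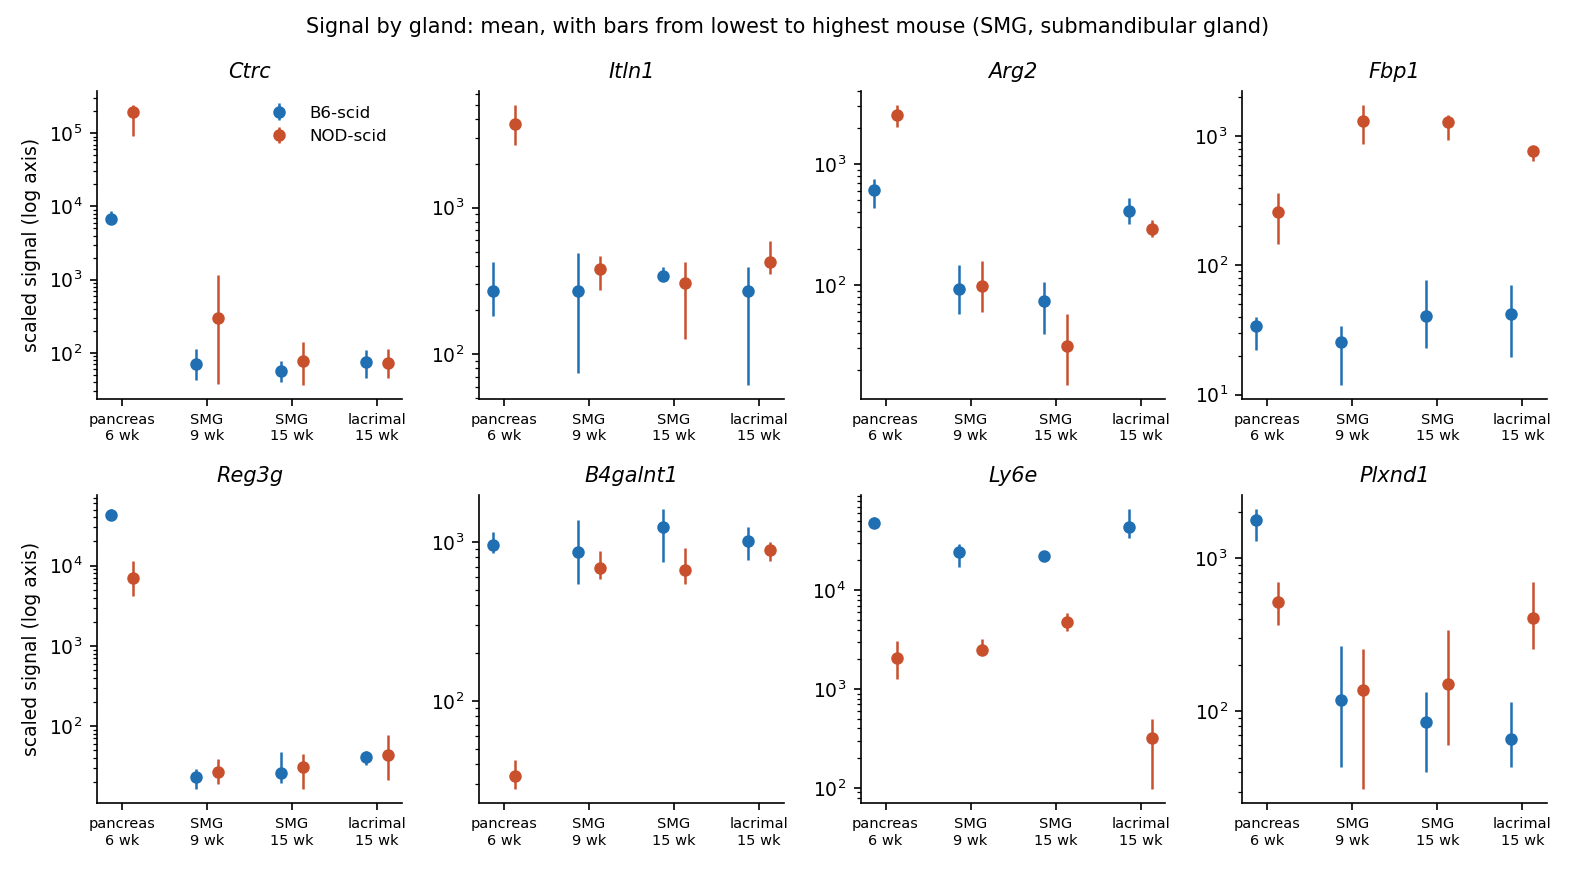
Mean scaled signal (y axis, log scale) of 8 genes in B6-scid (blue) and NOD-scid (orange) mice by gland and age (x axis); bars run from the lowest to the highest mouse, with 5 mice a group and 4 for NOD-scid lacrimal gland. The strain difference was called in pancreas only for Itln1 and B4galnt1 and in every gland for Ly6e and Fbp1, and Plxnd1 changes direction in lacrimal gland.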

How the data were processed

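Trizol RNA of 10 pancreas mice, 10 microg each, was hybridised as biotin-labelled cRNA to 3 array designs, per the labels' protocols. The authors deposited intensities on a linear scale, and the submitters' processing notes name MAS5; steps beyond this are not given in the sources used here. No detection calls were used. No 2 pancreas arrays held the same values, and the labels give no batch.

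From these intensities each array was rescaled to a 2% trimmed mean of 500 and taken as log2(signal + 32), which understates changes of dim genes. Probe sets with at least 100 on at least 4 arrays were tested with limma 3.58.1 in R 4.3.3. The 3 designs were stacked in 1 fit on strain alone, and p-values were adjusted over all. Differences between glands came from a fit of 39 mice in 8 groups. In simulated data, 92 probe sets changed by 1 and 90 changed by 2 on the log2 scale passed the filter. Of these, 22.83% and 70% were recovered, with 8 false among 92 calls. Of 36701 probe sets, 29131 had 1 gene symbol, from the platform annotation and RefSeq (GRCm38.p6); 724 had several, 6846 had none, and neither kind was named. For its median and its counts above and below 0, a list takes 1 probe set a gene, that with the highest mean signal among those tested, and for its summed signal that with the highest mean of all; a gene is called where any probe set is.

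Named genes were the 15 largest increases and decreases among called probe sets without overlap, up to 4 called genes (or the 3 with the smallest p) of each list, the 5 largest differences each way between glands, and a followed set; a few others were named after their values were seen. Members and lists were chosen with earlier results of these data known. Same-numbered mice do not share an animal or batch per the labels, and their deviations correlated at -0.02 to 0.04, so the numbers were not taken as pairs. Whether the mice came from separate litters is not given, so p-values measure the spread between these mice.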

Additional observations from a re-analysis of the deposited data

Results flagged for a closer look

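Within the 5 mice of a strain, 1 mouse stood apart from the others in 17 of 262 sets of signals examined (6.49%), where chance gives about 1 in 20. The measure is the gap to the nearest mouse divided by the whole range. Among called genes it was 0.742 for Wdr92 in NOD-scid mouse 1 (33298 against 74778 to 99016), 0.765 for Smc5 in NOD-scid mouse 3, 0.713 for Greb1 in NOD-scid mouse 4, 0.809 for Timmdc1 in B6-scid mouse 5 and 0.937 for Tmem45a in B6-scid mouse 4 (136 against 18.5 to 22.4). It was 0.804 for Rpgrip1 in NOD-scid mouse 4, 0.861 for Sesn2 in NOD-scid mouse 1, 0.754 for Gramd3 in NOD-scid mouse 5, 0.7103 for Hsd17b13 in B6-scid mouse 4, 0.780 for Ociad2 in NOD-scid mouse 3 and 0.847 for H2-D1 in NOD-scid mouse 1 (2057 against 964 to 1083). Among genes not called it was 0.761 for Prf1 in B6-scid mouse 1, 0.746 for Cxcl13 in B6-scid mouse 3, 0.747 for Lpl in B6-scid mouse 5, 0.828 for Fga in NOD-scid mouse 2, 0.888 for Tnnc2 in NOD-scid mouse 1 and 0.811 for Cd274 in B6-scid mouse 1.

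The strain difference in pancreas differed from that in another gland, by limma's test of the difference itself, for these genes, given as pancreas minus the other gland. Against submandibular gland at 9 weeks the gaps were 3.85 for Ctrc, 3.18 for Uox, 3.17 for Fam181b, 2.99 for Mtm1 and 2.97 for Cxcl1, and -3.09 for Reg3g, -3.21 for Sphk1, -3.27 for St6galnac1, -3.63 for B4galnt1 and -6.98 for Mucl1. Against submandibular gland at 15 weeks they were 4.51 for Ctrc, 3.86 for Itln1, 2.78 for Arg2, 2.76 for Mtm1 and 2.72 for Cyp46a1, and -3.07 for B4galnt1, -3.45 for Gcnt1, -3.60 for St6galnac1, -4.05 for Sesn2 and -6.35 for Mucl1. Against lacrimal gland at 15 weeks they were 5.30 for Ctrc, 4.05 for Cxcl1, 3.81 for Scgb1b27, 3.50 for Wdr92 and 3.19 for 2310001H17Rik, and -3.82 for Mucl1, -3.84 for Plxnd1, -5.23 for Sesn2, -5.49 for Notch4 and -5.73 for BC018473. For Uox, the pancreas difference itself was 0.03 and that of submandibular gland -3.14, so such a gap can come from the other gland.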

How the results depend on the processing

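The count of 127 pancreas calls became 242 with a variance prior that follows intensity, 295 in a fit of all 39 mice, 42 with the Actb ratio as a covariate, and 43 with the replicate number as a block, although the numbers do not pair the mice. Higher calls made up 57.14% with the covariate and 36.22% without it. Leaving out 1 mouse gave 88 to 130. A prior for each array design, chosen after seeing the data, gave 186. The 123, 74 and 220 gland differences were 95 to 137, 50 to 78 and 161 to 230 without 1 mouse. The block gave 69 for submandibular gland at 9 weeks and 138 for lacrimal gland, and fits of only the 2 glands compared gave 61 and 129. Directions turned only for uncalled genes: under quantile normalization Pla2g1b was at -0.024, Cela1 at 0.016, Cpa1 at 0 and Reg1 at 0.031, and with the covariate Tnnt3 was at -0.12 and Cpa1 at -0.092. Without 1 mouse, Cpa1 ran from -0.078 to 0.21, Cpa3 from -0.48 to 0.076 and Sis from -0.96 to 0.077. The cause was not tested. Of the 127 calls, 31 held under every alternative and every mouse left out. On simulated data with 5 mice a strain, the test recovered 22.83% of changes of 1 on the log2 scale in probe sets that passed the filter.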
